A study of Canis lupus familiaris with 34 samples.

Results

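Interferon-stimulated genes were followed in the mitral valves of 34 Cavalier King Charles Spaniels. A list of 39 gene symbols was matched to the deposited count table by symbol, and the canine RefSeq feature was used where a gene also had a human XenoRefSeq feature, that is, a human transcript aligned to the dog genome. Of the 39 members, 37 had a feature among the 23768 in the table, and IFI44L and XAF1 had none under their symbol. SAMD9 had 86 counts over all dogs, with counts above 0 in 15 of the 34, and fell under the minimum sum of 100 counts. The other 36 members were tested among 19568 features.

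The dogs were privately owned and about 10 years old on average in each group, with ages that differed by years between dogs. All were euthanised with pentobarbital after sedation with butorphanol and dexmedetomidine. The 10y-noCHF group (10 females and 9 males) held dogs without congestive heart failure (CHF). Nearly all of them had myxomatous mitral valve disease (MMVD), the degeneration of the valve leaflets that is common in this breed, and its severity varied within the group. The 10y-MMVD-CHF group (6 females and 9 males) held dogs in which the disease had led to CHF, which was diagnosed in part by the response to diuretics. Each dog gave 1 valve library of poly-A RNA, so the dog is the replicate, and diuretic treatment cannot be told apart from CHF here.

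Interferons are secreted proteins that cells release when they sense foreign or misplaced nucleic acid. Type I and type III interferons bind receptors that activate the kinases JAK1 and TYK2, which phosphorylate transcription factors of the STAT family. A complex that holds STAT2 and IRF9 then switches on interferon-stimulated genes. The products block viral entry, translation and replication, sense more nucleic acid, or feed back on the pathway. Interferon-gamma acts in part through IRF1. In healthy tissue the genes are transcribed at a low, tonic level that differs between individuals.

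Total counts per dog ranged from 46185256 to 82361245, with a median of 59857648. Levels are given as CPM, counts scaled to a library size of 1000000 after TMM normalization in edgeR, and spread is the SD over dogs. Every tested member had counts above 0 in every dog, and only ISG20 had fewer than 10 counts in any dog, with 4 to 246 counts per dog. The mean log2(CPM + 1) of 10 valve interstitial cell markers lay between 10.5 and 11.7 in all dogs, whereas that of 18 cardiomyocyte markers ranged from 1.24 to 10.7. Among the 10y-MMVD-CHF dogs, the female CAV1047 had the highest cardiomyocyte mean of all dogs and the lowest total count, and the male CAV614 had the highest means of red blood cell markers (5.06) and neutrophil markers (3.65). Main counts are therefore also given without both. In bulk tissue, fewer cells of a type and less RNA per cell cannot be told apart.

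Features of the list differ in what they count. Only MX1, MX2, OAS1, OAS2, OAS3, OASL and EIF2AK2 had a canine RefSeq feature, counted over exons. The listed length of the other 30 members equals the whole span of the feature, introns included, so levels of different genes are not compared here. Reads were assigned to every feature they overlapped, without strand. GBP1, on chromosome 6 of canFam4 from 59901858 to 59912515, shared 85.7% of its bases with the GBP2 feature, and the pair had 28631 and 29183 counts, so their values are close to a single measurement. IFI6 lay wholly inside a feature named FCN3 with 919773 counts, 86.6% of DDX60 lay inside DDX60L, 99.3% of DTX3L inside PARP15, and 64.5% of IRF1 under the antisense IRF1-AS1. The IFI44 feature, on chromosome 6 from 68886315 to 68919988, covered both IFI44 and IFI44L of the RefSeq annotation of the same assembly, so its counts can hold both genes.

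The question of the study was which genes differ between valves of dogs with and without CHF. With edgeR's quasi-likelihood test and sex as a fixed effect, 0 of 36 members had a Benjamini-Hochberg FDR below 0.1, against 23 of all features tested (0.118%). DESeq2 and limma voom also called 0 members, and their shares of all features called are not given here. At an unadjusted p below 0.05, 1 member was higher in 10y-MMVD-CHF, against 2.8% of all features, and 0 were lower, against 3.51%. Without CAV614 and CAV1047 the first count was 3, with no share of all features set beside it. The log2 fold change lay above 0 in 33 of 36 members, against 52.6% of all features. Its median was 0.144 over the members and 0.0076 over all features, and the median standard error of a member was 0.145.

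The member with an unadjusted p below 0.05 was IFIT2, whose protein binds viral RNA. It lies on chromosome 4 from 385949 to 389265 beside IFIT3 and IFIT1. IFIT2 had 6.1 CPM in the lowest, 11.5 in the median and 16.8 in the highest 10y-noCHF dog, and 10.6, 13.1 and 20.7 CPM in the 10y-MMVD-CHF dogs. The groups overlapped, and 11 of the 15 dogs with CHF exceeded the 10y-noCHF median. The means were 11.3 ± 3.28 CPM (SD, n = 19) and 14.6 ± 3.62 CPM (SD, n = 15). This gave a log2 fold change of 0.37 with a standard error of 0.137 (edgeR p = 0.0112, FDR = 0.607). The value did not pass the correction over all features.

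Of the 10 tested antiviral GTPases and RNA-binding effectors, 9 had log2 fold changes above 0, and the values ran from -0.31 in ISG20 to 0.44 in MX2. The value of ISG20 ranged from -0.647 without CAV614 to -0.136 without CAV749. MX2, an antiviral GTPase, had 9.45 ± 5.04 CPM in 10y-noCHF and 12.8 ± 5.46 CPM in 10y-MMVD-CHF (standard error 0.231, edgeR p = 0.0622). Its ranges, from 3.49 to 22.2 CPM and from 5.99 to 24.9 CPM, overlapped over most of their length. MX1, its neighbour on chromosome 31, had 62.2 ± 27.5 CPM in 10y-noCHF and 75.6 ± 36.5 CPM in 10y-MMVD-CHF, with a fold change of 0.27 on the log2 scale (standard error 0.219, edgeR FDR = 0.897) and 0.14 without CAV1097. IFIT5, which binds RNA with free phosphate ends, had the lowest SD of log2(CPM + 1) of the members. It had 37.2 ± 3.15 and 39.7 ± 4.45 CPM, which is 0.09 on the log2 scale (standard error 0.0519, edgeR p = 0.0774).

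All 6 members of the group of 2-5A synthetases (enzymes that make the oligoadenylates that activate RNase L), the double-stranded RNA kinase and the RNA editor had log2 fold changes above 0, between 0.05 and 0.28. EIF2AK2, the kinase PKR that halts translation on sensing double-stranded RNA, had 4.17, 7.75 and 11.1 CPM in the lowest, median and highest 10y-noCHF dog. In 10y-MMVD-CHF these values were 3.41, 8.23 and 13 CPM, and 12 of the 15 dogs exceeded the 10y-noCHF median. The log2 fold change was 0.28 with a standard error of 0.14 (edgeR p = 0.0523, FDR = 0.786), and the groups overlapped. OAS2 had 46.8 ± 14.2 and 53.5 ± 16.7 CPM (log2 fold change 0.19, standard error 0.146, FDR = 0.884), and 0.109 without CAV1196. ADAR, which edits adenosine in double-stranded RNA, ranged from 96.5 CPM to 142 CPM over all dogs. Its log2 fold change was 0.06, or 0.0344 without CAV1196. OASL had the lowest value of this group, 0.05, and its human XenoRefSeq feature gave 0.28 (standard error 0.26).

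The 5 members of the ISG15 conjugation system had log2 fold changes between 0.07 and 0.42. ISG15, the ubiquitin-like protein that is attached to other proteins, had 1.18, 3.91 and 11 CPM in the lowest, median and highest 10y-noCHF dog and 1.4, 5.54 and 13.7 CPM in 10y-MMVD-CHF. Both groups thus spanned nearly the same range. For ISG15 the log2 fold change was 0.42, with a standard error of 0.278 (edgeR FDR = 0.858), and 0.255 without CAV1097. USP18, which removes ISG15 and restrains receptor signalling, had 5.82 ± 1.94 CPM in 10y-noCHF and 7.02 ± 2.77 CPM in 10y-MMVD-CHF (log2 fold change 0.27, standard error 0.17, FDR = 0.848), and its log2 fold change was 0.179 without CAV1097.

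Among the 4 transcription factors the log2 fold changes ran from -0.02 in IRF9 to 0.29 in IRF7. IRF7, the factor that amplifies interferon production, had 1.7 ± 0.988 CPM in 10y-noCHF and 2.08 ± 1.03 CPM in 10y-MMVD-CHF (standard error 0.283, edgeR FDR = 0.924), and its log2 fold change was 0.168 without CAV1097. STAT2 had 50.6 ± 6.43 and 53.4 ± 7.79 CPM, a log2 fold change of 0.08. IRF9, the DNA-binding subunit that partners STAT2, had 36.7 ± 7.07 and 36.4 ± 7.4 CPM. The sign of this difference turned when CAV1519, CAV447 or CAV743 was left out.

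The 3 members of the PARP9-DTX3L complex and PARP14, which add ADP-ribose or ubiquitin to proteins, had log2 fold changes of 0.10 to 0.13, the highest in DTX3L (0.0878 without CAV1196). The 2 guanylate-binding proteins, GTPases that attack vacuoles of intracellular microbes, had values of -0.01 for GBP1 and 0.02 for GBP2. The sign of GBP1 turned with limma voom and without the sex term. The 2 RNA sensing members, IFIH1 and DDX60, had 0.14 (0.0803 without CAV1876) and 0.25 (0.088 without CAV1097). The 4 tested members among the other interferon-induced proteins had values from 0.01 in IFI6 to 0.22 in IFI44.

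Sex was compared over both groups. For sex, 0 of 36 members had an edgeR FDR below 0.1 (28 of all features, 0.143%). DESeq2 and limma voom called 0 as well, with no share of all features set beside them. At an unadjusted p below 0.05, 0 members were higher in females (1.4% of all features) and 1 was lower (1.58%). That member was ISG20, an exonuclease that degrades single-stranded RNA. ISG20 had 0.315 to 3.17 CPM in 10y-noCHF males and 0.167 to 0.898 CPM in 10y-noCHF females, with means of 1.26 and 0.503 CPM. With CHF, males had 0.21 to 3.1 CPM and females 0.103 to 1.44 CPM, with means of 0.753 and 0.575 CPM. The log2 difference between females and males was -0.91 over both groups (edgeR p = 0.0245, FDR = 1.0). The ranges overlapped, and the unadjusted p was no longer below 0.05 without CAV614 or without CAV749, the males with the highest ISG20 of their groups.

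The CHF difference was then compared between the sexes, with an interaction of CHF and sex in the same test. No feature at all had an edgeR FDR below 0.1 (0.0%), so 0 members were called. DESeq2 and limma voom called 0 members too, with no share of all features set beside them. At an unadjusted p below 0.05, the CHF difference was higher in females than in males in 13 of 36 members, against 3.16% of all features, and lower in 0, against 2.86%. It was above 0 in 35 of 36 members, against 50.6% of all features, and IRF9 was the exception. The median difference between the sexes was 0.538 log2 units over the members and 0.00283 over all features. The members rise and fall together across dogs, as given further on, so the 13 are far from 13 separate observations. Without CAV614 and CAV1047 there were 14 such members, and the median was 0.625, with no values over all features set beside them.

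Within females, 0 members had an edgeR FDR below 0.1, as did 0.0% of all features. At an unadjusted p below 0.05, 19 of 36 members were higher in 10y-MMVD-CHF females than in 10y-noCHF females, against 5.38% of all features, and 0 were lower, against 5.17%. The median log2 fold change within females was 0.446 (0.00719 over all features). DESeq2 called 1 member within females, IFI44 (FDR = 0.086), with 0.434% of all features called. The limma voom fit also called 1, EIF2AK2 (FDR = 0.0902), with 0.557% of all features called. Within males, 0 members were called (3 of all features, 0.0153%) and 0 had an unadjusted p below 0.05 in either direction, against 3.4%. In males the log2 fold change was below 0 in 28 of 36 members, against 48.7% of all features, with a median of -0.0677. The contrasts within each sex rest on 6 against 10 females and 9 against 9 males.

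**Figure D1:**
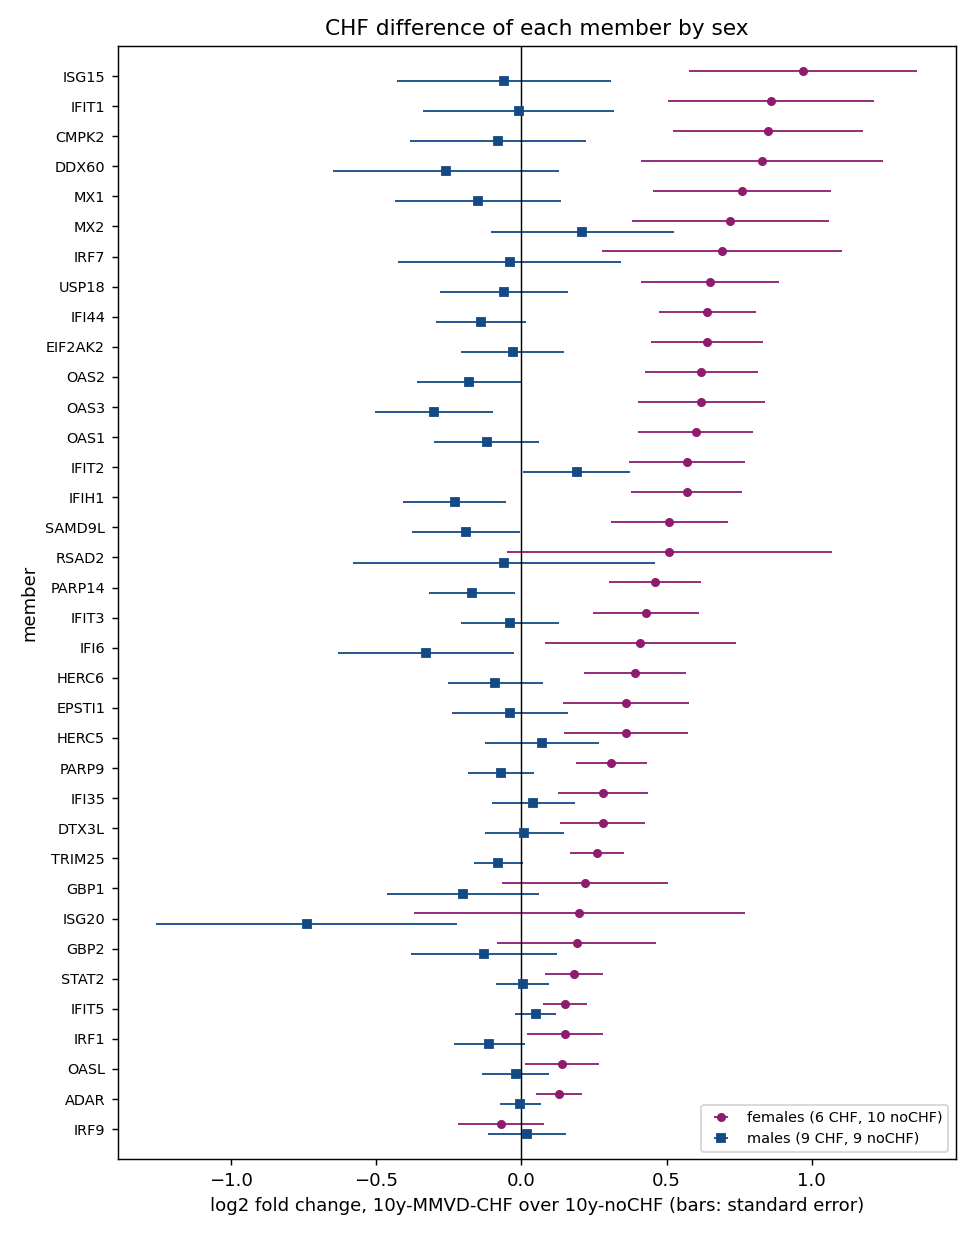
Log2 fold change of 10y-MMVD-CHF over 10y-noCHF for each of the 36 tested members (rows), in females (circles, 6 against 10 dogs) and in males (squares, 9 against 9 dogs), with edgeR standard errors as bars. The female values run from -0.07 in IRF9 to 0.97 in ISG15 and the male values from -0.74 in ISG20 to 0.21 in MX2.

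IFI44 had the smallest interaction p. Its protein is induced by interferon and its function is little known. In 10y-noCHF females IFI44 had 30.2 CPM in the lowest, 38.5 in the median and 59.5 in the highest dog, and in 10y-MMVD-CHF females 49.7, 63.9 and 71.9 CPM. All 6 females with CHF lay above the median of the 10y-noCHF females, and the groups overlapped only through the 10y-noCHF female CAV579. In 10y-noCHF males the values were 33.5, 46.8 and 67.3 CPM, and in 10y-MMVD-CHF males 30, 39.9 and 76.6 CPM. The highest male was CAV1097, and the next 10y-MMVD-CHF male had 45 CPM. The log2 fold change was 0.64 in females (standard error 0.167, edgeR FDR = 0.265) and -0.14 in males, a difference of 0.77 (standard error 0.229, p = 0.0019, FDR = 0.815). Leaving out single dogs gave differences between 0.693 (without CAV743) and 0.919 (without CAV1097).

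IFIH1 encodes MDA5, the sensor for long double-stranded RNA. IFIH1 had 15.7 ± 4.71 CPM (SD, n = 10) in 10y-noCHF females and 23.4 ± 4.16 CPM (SD, n = 6) in 10y-MMVD-CHF females. In males it had 18.5 ± 5.14 and 15.8 ± 4.06 CPM (SD, n = 9 each). The difference between the sexes was 0.80 (standard error 0.261, edgeR p = 0.00409, FDR = 0.815). All 6 females with CHF lay above the 10y-noCHF female median, and 1 of 9 males with CHF lay above the 10y-noCHF male median.

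OAS3 had 5.32 ± 1.64 CPM in 10y-noCHF females and 8.15 ± 1.93 CPM in 10y-MMVD-CHF females, against 6.22 ± 1.41 and 5.05 ± 2.13 CPM in males. The difference was 0.92 (standard error 0.299, edgeR p = 0.00421, FDR = 0.815). In its human XenoRefSeq feature, which spans introns, OAS3 gave 0.51 (p = 0.0976), so the value depends on the feature. OAS2, OAS1 and PARP14 had differences of 0.80, 0.73 and 0.63. The remaining members with an unadjusted p below 0.05 were TRIM25, SAMD9L, EIF2AK2, PARP9, USP18, MX1 and CMPK2, with differences from 0.34 in TRIM25 to 0.93 in CMPK2 and p-values up to 0.0459 (edgeR, all FDRs 0.815 or above). By role they were 3 of 10 effectors, 4 of 6 in the group of 2-5A synthetases, kinase and editor, 2 of 5 in the ISG15 system, 1 of 2 sensors, 2 of 3 of the PARP group and 1 of 4 others.

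Among these, MX1 had 25.4, 47.8 and 123 CPM in the lowest, median and highest 10y-noCHF female and 72.8, 103 and 129 CPM in the females with CHF. In males it had 36, 65.3 and 103 CPM without CHF and 33.6, 46.1 and 146 CPM with CHF. The ranges overlapped in both sexes. EIF2AK2 had 4.17, 7.54 and 9.44 CPM in 10y-noCHF females, and in females with CHF 8.05, 11.8 and 13 CPM. Of these 6 females, CAV1047 alone lay below the highest 10y-noCHF female. Males had 7.67 ± 1.94 CPM without CHF and 7.52 ± 2.13 CPM with CHF. ISG15 had the highest female log2 fold change, 0.97 (standard error 0.394), and its difference of 1.03 between the sexes did not reach an unadjusted p of 0.05 (edgeR p = 0.0665).

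**Figure D2:**
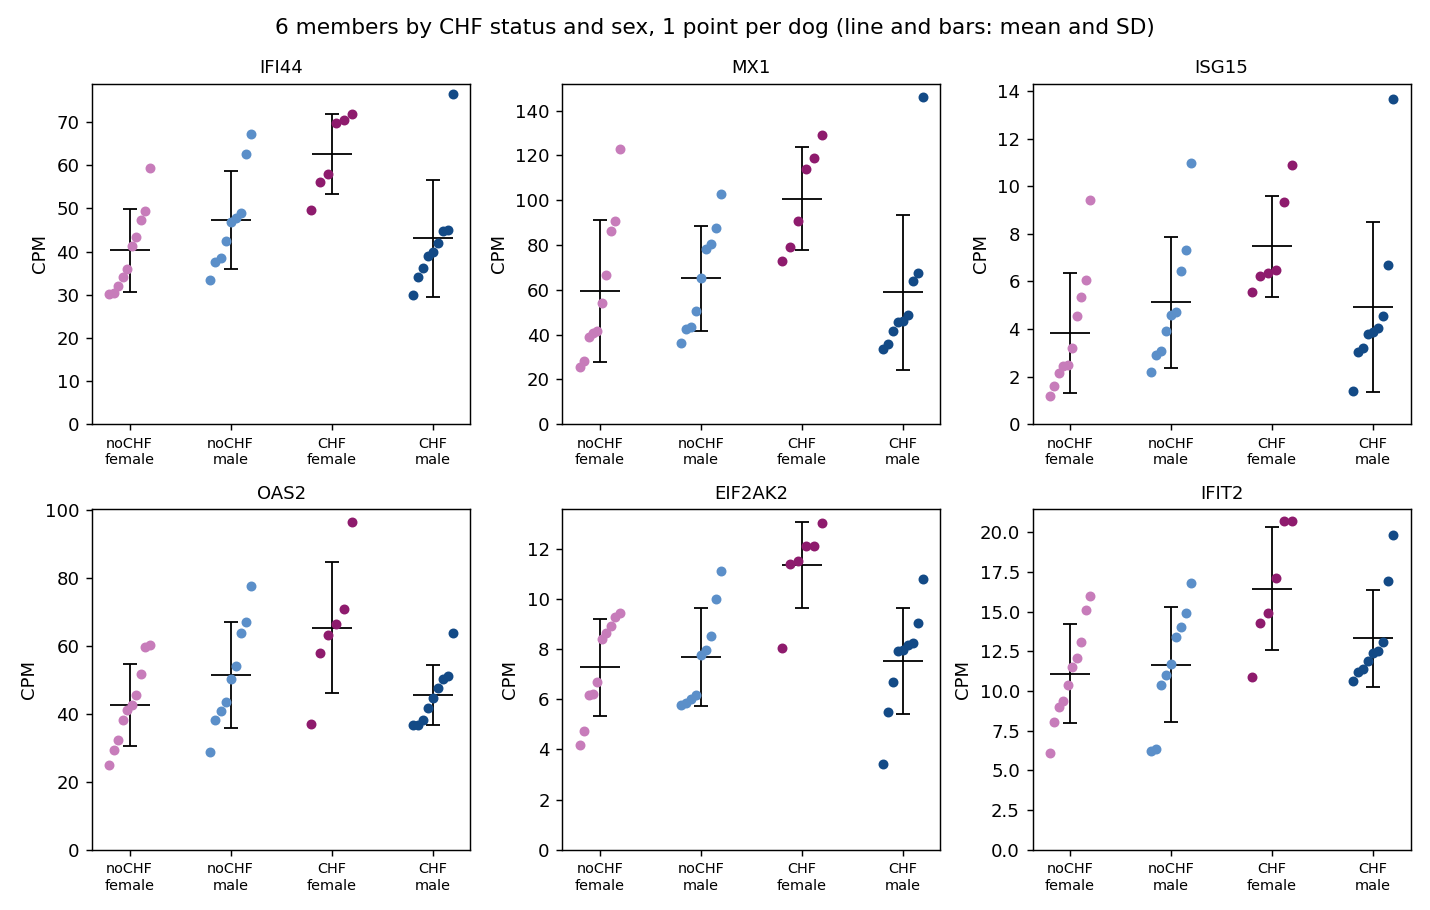
CPM of IFI44, MX1, ISG15, OAS2, EIF2AK2 and IFIT2 in each dog (points), by CHF status and sex on the x axis, with the mean and SD of each group as a line and bars. In IFI44, the 6 females with CHF lie at 49.7 CPM or above, while 8 of 9 males with CHF lie at 45 CPM or below and CAV1097 lies at 76.6 CPM.

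Levels of other cell types were examined beside these differences. The mean log2(CPM + 1) of the T cell and NK cell markers, of which 9 of 11 were tested, had medians of 1.08 in 10y-noCHF females, 1.18 in females with CHF, 1.02 in 10y-noCHF males and 1.05 in males with CHF. The highest dogs of these groups reached 1.22, 1.86, 2.07 and 1.76. Of these markers, CD3D and CD2 had an unadjusted interaction p below 0.05 in the same direction as the members, and CD3D was at 0 CPM in at least 1 dog with a median of 0.155 CPM. In 4 of the 9, GZMA, GZMB, PRF1 and NKG7, the interaction was below 0, and the list's median was 0.46. The dendritic cell markers (8 of 9 tested) had medians of 1.43, 1.64, 1.37 and 1.49. Among them 1, CCR7, had an unadjusted interaction p below 0.05 (3.11, p = 0.0103). CCR7 was at 0 CPM in at least 1 dog, with a median of 0.262 CPM. The interaction was below 0 in 4 of these 8 dendritic cell markers, and the list's median was 0.0. The macrophage markers had medians of 5.64, 5.83, 5.79 and 5.75. Their median interaction was 0.21, LYVE1 and AIF1 lay below 0, and 0 markers had an unadjusted p below 0.05. The lowest macrophage means were those of CAV1731, CAV748 and CAV1047 (4.82, 4.85 and 4.91). The B cell, neutrophil, endothelium and smooth muscle lists also had 0 such markers, with median interactions of 0.27, -0.08, 0.07 and -0.11. Of 7 tested red blood cell markers, 6 had an interaction below 0, with a median of -0.97. HBA1 and HBA2 among them had identical values, so they are close to a single measurement. AHSP (-6.66, p = 0.00573) and SLC4A1 (-4.44, p = 0.042) had an unadjusted p below 0.05. Both had a median of 0 CPM and were highest in CAV614, with only 1.19 and 0.864 CPM. Of 10 valve interstitial cell markers, the collagen genes COL1A1, COL1A2 and COL3A1 also had a higher CHF difference in females, with values of 0.67 to 0.81 and p-values of 0.0165 to 0.037. The median interaction of the 10 was 0.26. The part of these cell types in the result was not tested. Of the 18 cardiomyocyte markers, 0 had an interaction p below 0.05, and with their mean as a covariate 9 members in place of 13 did. The share of all features with that covariate is not given here.

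The spread over the 34 dogs differed between members. DDX60, a helicase linked to viral RNA sensing, had the highest SD of log2(CPM + 1), 0.792, and ranged 9.92-fold, from 2.52 CPM in CAV1731 to 25 CPM in CAV1097. RSAD2, which encodes viperin, an enzyme that makes a chain-terminating nucleotide, ranged from 0.394 CPM in CAV1732 to 9.62 CPM in CAV1097, with an SD of 0.765. ISG15, MX1 and MX2 followed with SDs of 0.683, 0.664 and 0.656. At the other end, TRIM25, a ubiquitin ligase that acts on the sensor RIG-I, had an SD of 0.187 and a range of 1.87-fold, and ADAR and IFIT5 had SDs of 0.146 and 0.145.

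The same dogs were high or low in most members. CAV1097, a 10y-MMVD-CHF male, was the highest of all 34 dogs in 14 members, among the 5 highest in 29 and above the median in all 36. CAV1196, a 10y-MMVD-CHF female, was among the 5 highest in 28 members. High dogs were also found without CHF, since the males CAV743 and CAV749 were among the 5 highest in 17 and 16 members. The 10y-noCHF females CAV748 and CAV1731 were above the median in 0 members, and CAV748 was among the 5 lowest in 27. Of the females with CHF, CAV1047 was above the median in 11 members, and the other 5 in 25 to 35. Of the males with CHF, CAV1097 aside, none was above the median in more than 20 members. Without CAV1097, 18 members had an unadjusted interaction p below 0.05, and without CAV743 there were 9. The shares of all features in these refits are not given here.

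**Figure D3:**
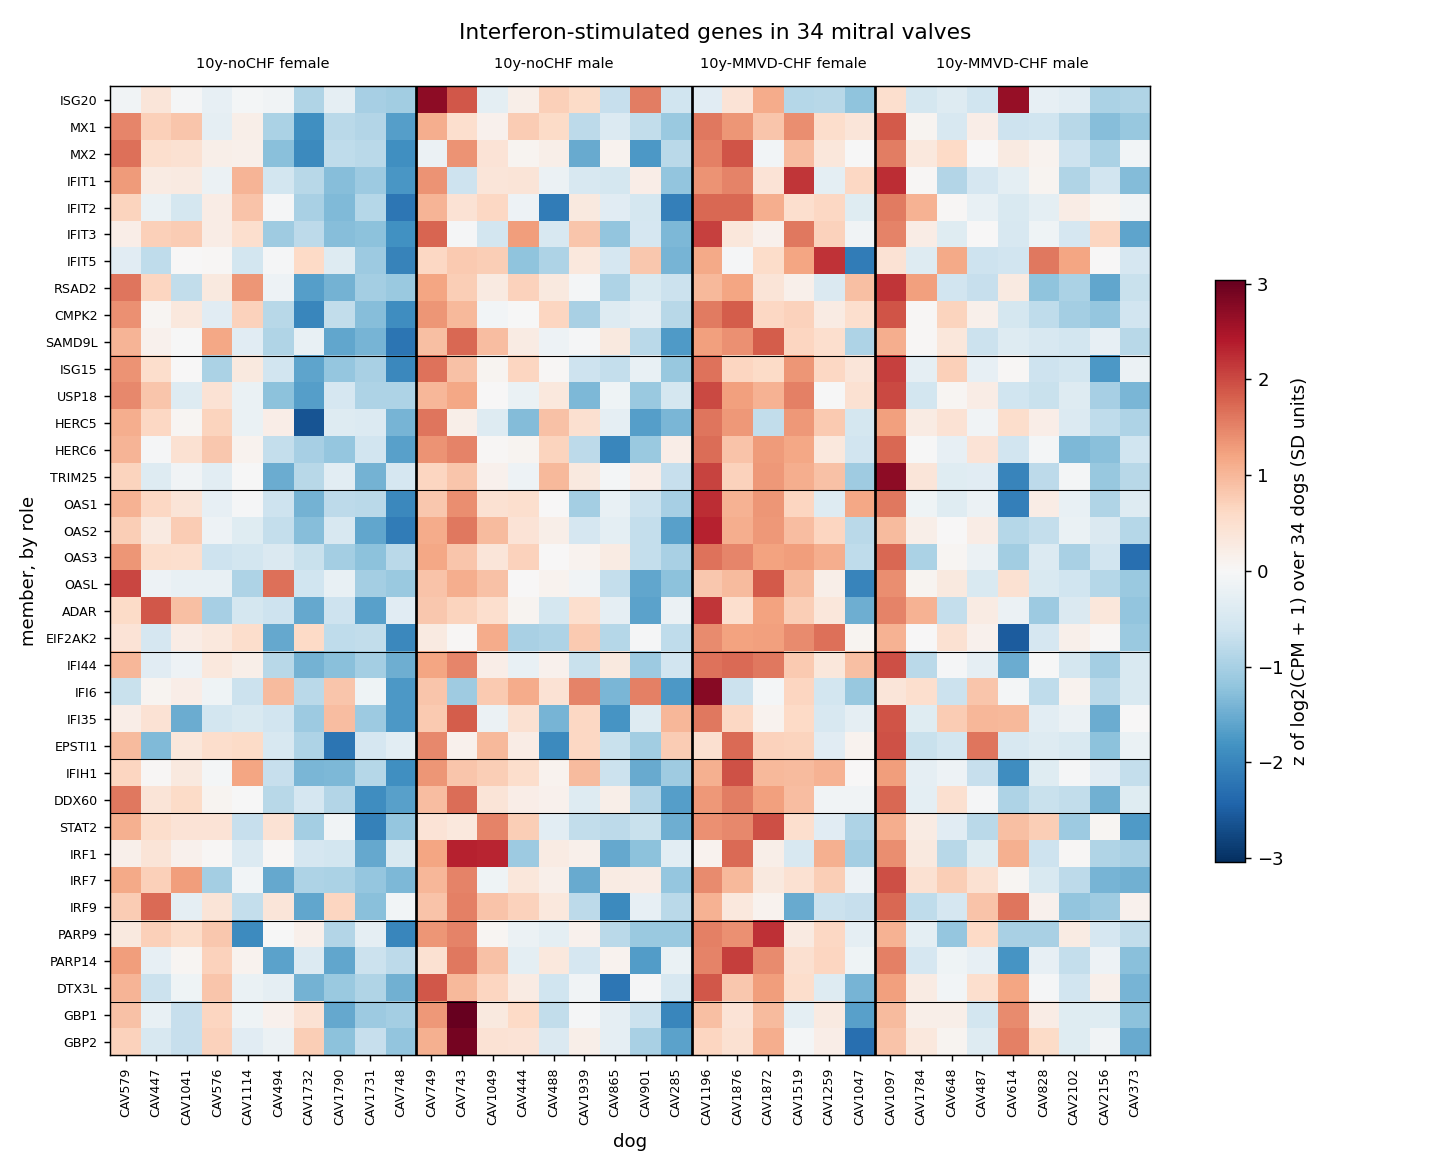
Level of each tested member (rows, grouped by role) in each dog (columns, grouped by CHF status and sex and ordered by the number of members above the median), as the z value of log2(CPM + 1) over the 34 dogs. Red columns such as CAV1097, CAV1196 and CAV1876 are high in most rows, and CAV748 is low in most.

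The marker lists were read in CAV1097 too. Its means of log2(CPM + 1) were 7.5 for cardiomyocyte, 5.62 for macrophage, 1.05 for T cell and NK cell and 1.57 for dendritic cell markers, all inside the range of the other dogs. Its B cell mean of 1.45 was the highest among the 10y-MMVD-CHF males and inside the range of the 10y-noCHF dogs. The dogs above the median in 5 members or fewer were CAV748, CAV1731, CAV373, CAV285, CAV1732, CAV1790 and CAV2156. Their cardiomyocyte means were 9.19, 9.38, 9.33, 8.59, 8.6, 6.9 and 3.85. Those of the high dogs CAV1196, CAV1876, CAV749 and CAV743 were 1.9, 7.47, 1.24 and 8.69. The part of muscle content in the levels of the members was not tested.

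Co-variation between members was measured with Spearman's rho across the 34 dogs after the means of the 4 groups of CHF and sex had been removed. It is a description across dogs that share library preparation and normalization, and the genes are not independent. The median over the 630 pairs of members was 0.537, and that over all pairs of tested features was -0.0029. The coefficient was above 0.5 in 58.4% of member pairs and in 4% of all pairs, and below 0 in 7 member pairs. The median was 0.568 in the 10y-noCHF dogs alone, 0.471 in the 10y-MMVD-CHF dogs alone and 0.475 on residuals after a regression on the cardiomyocyte markers.

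OAS2 had the highest median rho with the other members, 0.712, followed by MX1 with 0.653 and DDX60 with 0.642. IFIT5 and IFI6 had the lowest, 0.179 and 0.228. The closest pair, GBP1 and GBP2 with 0.969, shares most of its reads. The next were MX1 with CMPK2, a mitochondrial nucleotide kinase, at 0.886 and OAS2 with DDX60 at 0.882. The factor IRF7 was closest to MX1 (0.859), and STAT2 to OASL (0.782). The canine OASL feature spans OASL and its neighbour LOC477518, which the annotation gives the synonym OASL2, so it can hold both. It had 35549 counts, and the human OASL feature, which covers OASL with its introns, had 4670. For the interaction of CHF and sex the human feature gave 0.92 (standard error 0.509, edgeR p = 0.0802), against 0.15 in the canine feature. The rho with STAT2 is that of the canine feature.

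**Figure D4:**
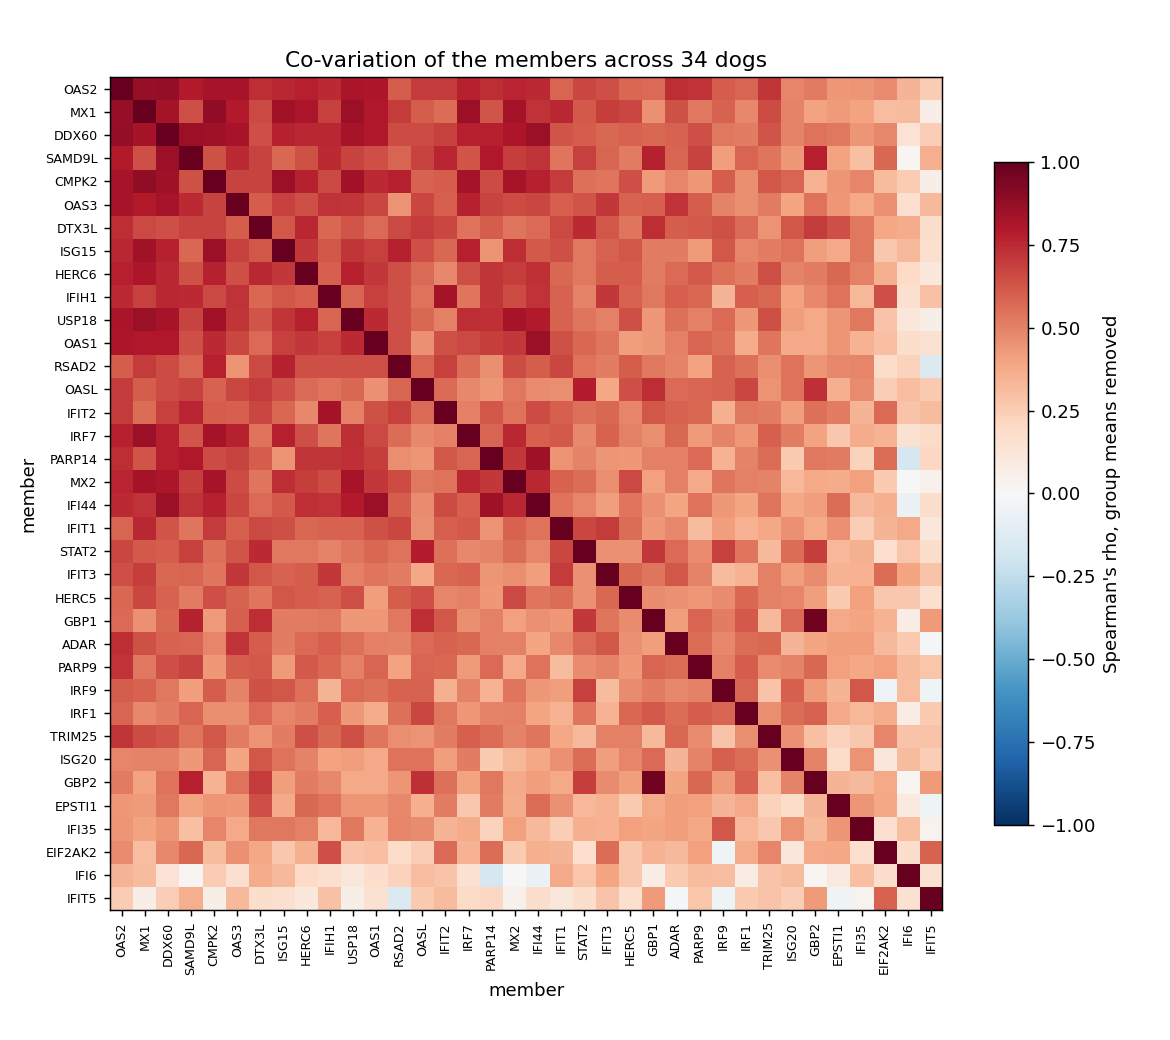
Spearman's rho between each pair of the 36 tested members across 34 dogs, after group means were removed, with members ordered on both axes by their median rho with the others. The block of high values runs from OAS2 and MX1 at the upper left, and IFIT5 and IFI6 at the lower right have medians of 0.179 and 0.228.

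Many members are neighbours in the genome. The 36 tested members lie on 22 chromosomes, and 17 of them form 13 pairs within 1000000 bases on 7 chromosomes. Examples are RSAD2 and CMPK2, head to head on chromosome 17 (4500392 to 4519661 and 4479174 to 4492047), and OAS1, OAS3 and OAS2 on chromosome 26. The 12 neighbouring pairs other than GBP1 and GBP2 had a median rho of 0.642, and the 617 pairs that are not neighbours had 0.535. Neighbours such as MX1 and MX2, or OAS1, OAS2 and OAS3, also belong to the same gene family. Position and family therefore cannot be told apart here. The features of PARP9 and DTX3L also share 114 bases.

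ISG15 was related to each of the other 35 tested members across 34 dogs on log2(CPM + 1), with group means removed. Pearson's r was above 0.5 in 26 relations and below 0 in none. The r passed Benjamini-Hochberg adjustment over the 35 relations at 0.1 in 34 of them, and Spearman's rho in 33 (two-sided permutation tests with 100000 resamples). Features outside the list were not related to ISG15, so these counts have no share of all features beside them. Whether they are particular to the list was not tested. The highest were CMPK2, with r of 0.886 and rho of 0.855, and MX1, with r of 0.884 and rho of 0.84. Each had a permutation p of 1e-05, the smallest that the resamples can give, with adjusted values of 2.69e-05 for r and 4.37e-05 for rho. Without CAV1097 and CAV579, the dogs farthest from the ISG15 median, r was 0.831 and 0.824. Within 10y-noCHF it was 0.919 and 0.925, and within 10y-MMVD-CHF 0.832 and 0.814.

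The factors that carry or amplify the signal were read in the same way, and differences between their coefficients were not tested. Their SDs of log2(CPM + 1) were 0.516 in IRF7, 0.273 in IRF9, 0.195 in STAT2 and 0.247 in IRF1. IRF7 had r of 0.814 with ISG15 (rho 0.775, permutation p = 1e-05 for both, adjusted 2.69e-05 and 4.37e-05) and 0.749 without the same 2 dogs. For IRF9, r was 0.585 (p = 0.00031, adjusted 0.000493) and rho 0.623 (p = 0.00013, adjusted 0.000268), with r of 0.52 without these dogs. For STAT2, r was 0.502 (permutation p = 0.00251, adjusted 0.00338) and rho 0.529 (p = 0.00159, adjusted 0.00232), and r was 0.402 without them. IRF1, more responsive to interferon-gamma, had r of 0.424 (permutation p = 0.0127, adjusted 0.0142) and rho of 0.492 (p = 0.00338, adjusted 0.00422), with r of 0.348 without them. IFIT5 had the lowest r, 0.224 (permutation p = 0.203, adjusted 0.203), with rho of 0.159 (p = 0.368, adjusted 0.368). Without these 2 dogs 21 relations had r above 0.5.

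Other genes of the interferon pathway were read from a list of 101 symbols, old and new names included, of which 91 had a feature and 80 were tested. With edgeR, 0 had an FDR below 0.1 for CHF. At an unadjusted p below 0.05, 3 of 80 were higher in 10y-MMVD-CHF and 0 lower, against 2.8% and 3.51% of all features, so the first share is near the background. The log2 fold change was above 0 in 51 of 80, against 52.6% of all features. The 3 were TLR8, a receptor for single-stranded RNA in endosomes, DDX58, the sensor RIG-I, and PTPN11, a phosphatase. Their log2 fold changes were 0.41 (standard error 0.165, edgeR p = 0.0178, FDR = 0.662), 0.27 (standard error 0.114, p = 0.0238) and 0.16 (standard error 0.067, p = 0.0262). DDX58 had 26.3 ± 6.11 CPM in 10y-noCHF and 31.7 ± 8.25 CPM in 10y-MMVD-CHF.

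Transcripts of the ligands were scarce. Of 12 interferon genes with a feature, 7 had 0 counts in all dogs, IFNB1 among them. This allows up to 0.00142 CPM (3 counts over all dogs, counting error only). The bound takes each count as independent, and 71.3% of all counts above 0 were even, so it may be too low. The ligand features are human sequences aligned to the dog genome, and canine interferon genes that differ from them may not be counted there. Only IFNK and IFNG passed the minimum sum, with 116 and 104 counts over all dogs, in 14 and 12 dogs. The 5 receptor genes with a feature were all tested, and IFNGR1, the ligand-binding chain of the interferon-gamma receptor, had 67.3 ± 8.85 CPM in 10y-noCHF and 73.3 ± 11.3 CPM in 10y-MMVD-CHF.

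For the interaction of CHF and sex, 0 of the 80 pathway genes had an edgeR FDR below 0.1. At an unadjusted p below 0.05 the CHF difference was higher in females in 10 of them and lower in 0, against 3.16% and 2.86% of all features. It was above 0 in 62 of 80, against 50.6% of all features, with a median of 0.19 beside 0.00283 over all features. Of the 10, 5 were in the part of the list that holds other interferon-induced genes. They were measured in the same dogs as the members, so the 10 are not a separate observation.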

How the data were processed

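The authors isolated poly-A RNA from mitral valves, sequenced paired reads of 150 bases, mapped them to canFam4 (STAR) and counted reads per feature with featureCounts 2.0.3, without strand and with a read assigned to every feature it overlapped. The counts were deposited without normalization, and 71.3% of those above 0 were even. The deposited table holds 2165 canine RefSeq and 21603 human XenoRefSeq features, and 1 count column that belongs to no labelled dog was not used.

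Groups followed the labels (34 dogs, 46185256 to 82361245 counts). Features with at least 100 counts in sum were tested with edgeR 4.0.16 in R 4.3.3 (quasi-likelihood test, TMM factors, a term for sex, FDR below 0.1). The interaction of CHF and sex used the same test, and standard errors were derived from its statistic. DESeq2 1.42.0, the study's tool, limma 3.58.1 voom with sample weights, other normalizations and filters, no sex term, a robust fit, a cardiomyocyte covariate, the human features and leaving out each dog were alternatives. Fits were tested on simulated data. Correlations used log2(CPM + 1), scipy 1.17.1 and numpy 2.4.6.

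Members, lists and tests were chosen with earlier results of these data known. Genes named are those with the highest CPM per listed kb of each role, the 6 smallest p for CHF, 3 for sex and 3 for the interaction, the 5 highest and 3 lowest SDs, ISG15, IRF7, STAT2 and MX1, and of the pathway list the 3 smallest p for CHF, and 1 further gene of that list is not reported here. Further genes named were chosen after their values were seen. RefSeq names and neighbours came from the annotation of UU_Cfam_GSD_1.0, the same assembly, which matched 34 members.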

Additional observations from a re-analysis of the deposited data

Results flagged for a closer look

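For each tested member and each of the 4 groups of CHF and sex, the gap between the highest or lowest dog and its neighbour was divided by the range of the group on log2(CPM + 1). Of 144 such groups, 11 passed Dixon's limit at 95%, where chance gives about 7.2, since about 5% of groups pass. Co-varying members make these flags dependent.

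CAV1097 was the highest 10y-MMVD-CHF male in 6 of them. The gap took up 0.609 of the range in IFIT1 (13.1 CPM against a median of 3.3 in the others), 0.569 in IFI44 (76.6 against 39.5), 0.527 in MX1 (146 against 45.9), 0.527 in USP18 (12 against 4.88), 0.499 in TRIM25 (70.1 against 45.4) and 0.497 in PARP14 (33.8 against 21.2). Without CAV1097 the median log2 fold change of the members for CHF was 0.0965, the lowest value with any dog left out, and 18 members had an unadjusted interaction p below 0.05. Neither value has that of all features in the same refit beside it.

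CAV1047 was the lowest 10y-MMVD-CHF female in 3, with gaps of 0.777 in OAS3 (4.38 CPM against 8.68), 0.73 in EIF2AK2 (8.05 against 12.1) and 0.662 in GBP2 (5.28 against 15.3). This dog also had the highest cardiomyocyte mean of all, 10.7 on log2(CPM + 1), and the lowest total count. CAV614 was the highest 10y-MMVD-CHF male in ISG20, with a gap of 0.595 (3.1 CPM against 0.43), and CAV1731 the lowest 10y-noCHF female in IRF1, with a gap of 0.499 (25.7 CPM against 34.1). What sets these dogs apart was not tested.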

How the results depend on the processing

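Members with an FDR below 0.1 stayed at 0 for CHF, sex and the interaction under each alternative run for them and with each dog left out. Counts of members in this section are given without the share of all features in the same refit. They cannot tell a shift of the members from a shift of all features. The robust fit and an FDR threshold of 0.05 were run for CHF only, and sex was not refitted without CAV614 and CAV1047 or with the human features. Within females the count was 1 with DESeq2 and 1 with limma voom, settings added after seeing the data, and 0 otherwise. Members with an unadjusted p below 0.05 for CHF numbered 2 with the cardiomyocyte covariate, 2 with DESeq2, 2 with the human features, 3 without CAV614 and CAV1047, 4 with limma voom, and 1 to 5 with each dog left out (5 without CAV749, 4 without CAV743, 3 without CAV1047 or CAV614, and 2 without CAV1049, CAV1114, CAV1732, CAV1939, CAV2102, CAV2156, CAV373, CAV579 or CAV828). For sex the count was 0 with limma voom and 0 to 1 with each dog left out (0 without CAV614 or CAV749). For the interaction it ranged from 9 to 18 and within females from 15, without CAV1196, to 24. The median log2 fold change of the members for CHF ranged from 0.0965 to 0.183 with each dog left out, that of the interaction from 0.411 to 0.703, and that within females from 0.396 to 0.512. The sign for CHF turned in GBP1 (0.0022 without the sex term, 0.0804 with limma voom, -0.0615 to 0.159 with each dog left out), in IFI6 (-0.0504 with limma voom, -0.241 to 0.077), in RSAD2 (-0.00969 with limma voom, -0.0667 without CAV1097, up to 0.334) and in IRF9 (-0.0578 to 0.00708). The interaction of IRF9 was 0.00113 without CAV614 and CAV1047. The cause of these turns was not tested. The median rho ranged from 0.507 to 0.564 with each dog left out, and relations with ISG15 above 0.5 numbered 23 to 28. On CPM in place of log2(CPM + 1), 24 in place of 11 of the 144 combinations of member and group held a dog far from the others. No paired analysis was possible because each dog gave 1 library and no label ties dogs across groups.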

Other observations

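The marker lists were compared with ISG15 and IFI44 across the 34 dogs, with group means removed, a choice made after the values were seen. Of 20 relations, 1 had an adjusted p below 0.1. IFI44 was related to the mean of the 7 B cell markers, with Pearson's r of 0.571 (permutation p = 0.00035, adjusted 0.007) and Spearman's rho of 0.575 (permutation p = 0.00055, adjusted 0.011). Without the 2 dogs farthest from the IFI44 median r was 0.537, and it was 0.565 within 10y-noCHF and 0.578 within 10y-MMVD-CHF. The median of the list was 1.23 in 10y-noCHF females and 1.01 in females with CHF, while the IFI44 median was 38.5 and 63.9 CPM. In males the list had 1.3 and 1.01, and IFI44 46.8 and 39.9 CPM. Apart from JCHAIN, the joining chain of antibodies that plasma cells make, each B cell marker had a median of 0.572 CPM or less. ISG15 gave r of 0.351 with the same list (permutation p = 0.0419, adjusted 0.31, rho 0.296 with p = 0.0901, adjusted 0.281), and 0.261 without the 2 dogs farthest from its median. Other lists differed between the groups. With the macrophage and the T cell and NK cell lists, IFI44 had r of 0.602 and 0.621 within 10y-noCHF. Within 10y-MMVD-CHF these were -0.0703 and -0.0133. ISG15 had r of 0.539 and -0.118 with the macrophage list in the same 2 groups.

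Transcripts of the IFITM genes, membrane proteins that block viral entry and are abundant in many tissues, were scarce. The human features of IFITM1, IFITM2 and IFITM3 held 550, 242 and 5 counts over all dogs. Whether the canine genes are counted under other features was not tested.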
